A study of Mus musculus with 2 samples.

Results

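Cyp2f2-positive epithelial cells of the tongue were examined in a mouse model of head and neck squamous cell carcinoma, in which C57BL/6 mice of wild-type genotype had been given the carcinogen 4NQO. One single-cell library came from tumours of control-treated mice and one from tumours of mice treated with JQ1, an inhibitor of the bromodomains of the BET family of chromatin readers, and treatment lasted 10 days. Both libraries share the strain, the genotype, the tissue and the carcinogen. Neither the number of mice nor the JQ1 dose is stated in the labels. With 1 library in each group no difference below has a replicate check, no p-value is given, and an effect of the drug cannot be told apart from a difference between mice, tumours or libraries.

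The cells were chosen by their own transcript counts. A member was a barcode with 200 or more genes and under 20% mitochondrial unique molecular identifiers (UMIs, each 1 counted transcript molecule), 2 or more Cyp2f2 UMIs, 2 or more UMIs summed over Tfcp2l1, Epcam, Krt8 and Krt18, under 1% Muc5b, under 0.5% Krt5 plus Krt14, and no Ptprc UMI. That rule gave 327 members of 22737 kept barcodes. They were 127 of 8269 in the control library (1.54%, exact 95% binomial interval 1.28 to 1.82%) and 200 of 14468 in the JQ1 library (1.38%, 1.2 to 1.59%). The name proposed for these cells is gland duct epithelium. Its markers occurred together in some of the members only, as described below, and the cells are therefore called by their rule. Values of the genes used in the rule are descriptions of the selection and nothing was tested on them.

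Cyp2f2 encodes a cytochrome P450 monooxygenase that oxidises small aromatic molecules such as naphthalene and is best known from the club cells of the mouse airway. Tfcp2l1 is a transcription factor of the grainyhead-related CP2 family that is expressed in ducts of the salivary gland and in the collecting duct of the kidney. Krt8 and Krt18 are the paired keratins of simple, single-layered epithelia, whereas Krt5 and Krt14 form the filaments of the basal layer of stratified epithelium, and Ly6d is a small surface protein anchored to the membrane by a lipid. In the minor salivary glands of the tongue, serous or mucous acini release their fluid into ducts whose cells reabsorb sodium through the epithelial sodium channel and the sodium-potassium pump. The excretory ducts open through the stratified lining of the tongue surface.

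Cyp2f2 lies at chr7:27119955-27133660 on the forward strand of mouse genome build GRCm38.p6 (mm10). Tfcp2l1 lies at chr1:118627923-118685168, Ly6d at chr15:74762056-74763567, Krt8 at chr15:101996711-102004342 and Krt18 at chr15:102028216-102032026. The 250 bases upstream of the RefSeq start of Cyp2f2, chr7:27119705-27119954 on the forward strand, are shown because Tfcp2l1 and Cyp2f2 transcripts were highest in the same cells. Capitals mark the matches to CCNGNNNNNNCCNG, a form of the motif of the CP2 family, searched on both strands.
Cyp2f2: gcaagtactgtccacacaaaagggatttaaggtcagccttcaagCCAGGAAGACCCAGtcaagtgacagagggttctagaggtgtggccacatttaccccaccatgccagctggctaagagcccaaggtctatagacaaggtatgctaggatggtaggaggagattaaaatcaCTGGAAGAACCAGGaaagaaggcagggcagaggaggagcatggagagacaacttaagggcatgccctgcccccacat
The window held 2 matches, of which the second was on the reverse strand, and no match to AACCNGTT, a form of the grainyhead motif. Of 32851 RefSeq starts in the same table, 24.9% held 1 or more matches to the CP2 form and 7.79% held 2 or more, and 1.79% held the grainyhead form. Of the 16 starts found for 14 of the 20 genes named below as highest in the members, 4 held the CP2 form (25%), about the share of all starts. A match is a run of letters and not a shown binding site.

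Depth was similar in the members of both libraries. Members held a median of 14154 UMIs (lowest 3029, highest 99803) in the control library and 13909.5 (lowest 1604, highest 95973) in the JQ1 library. All kept barcodes had medians of 11435 and 3948.5 UMIs, from library totals of 118382532 and 99565417 UMIs. The members' median mitochondrial share was 2.99% and 3.38%. Scrublet called 0 control and 2 JQ1 members doublets, and 40 barcode sequences occurred in both libraries, 0 of them a member. Free RNA differed between the libraries. Haemoglobin and other erythroid transcripts summed to 2.63 CPM (counts per 1e6 UMIs) in control members and 4952 CPM in JQ1 members, and the mucin Muc5b was at 12.2 and 231 CPM in fibroblasts, which do not make it. Intervals on CPM are exact 95% Poisson intervals of the summed UMIs, and like the binomial intervals they cover counting error only.

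The members differed by library in how the rule took them in. In the control library 295 barcodes had 2 or more Cyp2f2 UMIs, and 202 of them also had the 2 epithelial UMIs. In the JQ1 library the same steps left 822 and then 735 barcodes, and the Muc5b limit removed 504 of those, so most Cyp2f2-positive simple epithelium of the JQ1 library was left out as rich in mucin transcripts. The 19 control members at exactly 2 Cyp2f2 UMIs had 2404 CPM of Krt8 and 81129.7 CPM of Wfdc18, a secreted whey acidic protein. The 37 control barcodes just outside, at 1 Cyp2f2 UMI, had 1289 and 60968 CPM. In the JQ1 library 38 members just inside had 1720.4 CPM of Krt8 and 82 barcodes just outside had 1678 CPM, with Wfdc18 at 61446 and 35719.5 CPM. Cells on either side of the Cyp2f2 threshold thus carried the same transcripts, with Wfdc18 lower outside it in both libraries and Krt8 lower in the control library.

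Keratinocytes, taken as barcodes with 1% or more Krt5 plus Krt14 and fewer than 2 Cyp2f2 UMIs, and Muc5b-high gland cells, with 1% or more Muc5b, served for comparison. There were 3231 control and 669 JQ1 keratinocytes and 59 control and 1219 JQ1 Muc5b-high cells. Summed over control members, Cyp2f2 was at 698 CPM (664 to 733), and over JQ1 members at 868 CPM (838 to 898). Its level in single members ran from 40.1 through a median of 476 to 13708 CPM in the control library and from 26.1 through 556 to 21390.4 CPM in the JQ1 library. The members therefore spanned a wide range of Cyp2f2, and the ranges of the libraries overlapped. Muc5b-high cells, which no Cyp2f2 threshold selected, had 196 and 141 CPM, with a Cyp2f2 UMI in 74.6% and 65% of cells. Keratinocytes, kept under 2 UMIs by their rule, had 0.687 and 1.13 CPM, and fibroblasts, the class used for the level of free RNA, had 2.15 and 24.3 CPM.

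In control members Tfcp2l1 was at 164 CPM (147 to 181), and in JQ1 members at 208 CPM (194 to 224), with a UMI in 58.3% and 66% of them. After each cell was thinned to 2000 UMIs the shares were 24.4% and 32.3%. Its levels were 44.6 and 68.4 CPM in Muc5b-high cells, 3.81 and 7.14 CPM in keratinocytes and 0 and 0.296 CPM in fibroblasts. Krt8 was at 1894 and 2472 CPM in members and 21.7 and 13.6 CPM in keratinocytes, and Krt18 at 2530.3 and 2787 CPM and 54 and 30.9 CPM. Krt8 and Krt18 were thus held by a part of the members only: 66.1% of control and 89.5% of JQ1 members had a Krt8 UMI. Ly6d, the 1 marker that was not used in the rule, reached 3973 CPM (3892 to 4056) over the control members, 1396 CPM (1358 to 1434) over the JQ1 members and 3782 and 3434 CPM in keratinocytes, against 38.2 and 24.7 CPM in Muc5b-high cells. Ly6d therefore lay above Muc5b-high cells in both libraries and did not lie above keratinocytes in the JQ1 library.

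**Figure D1:**
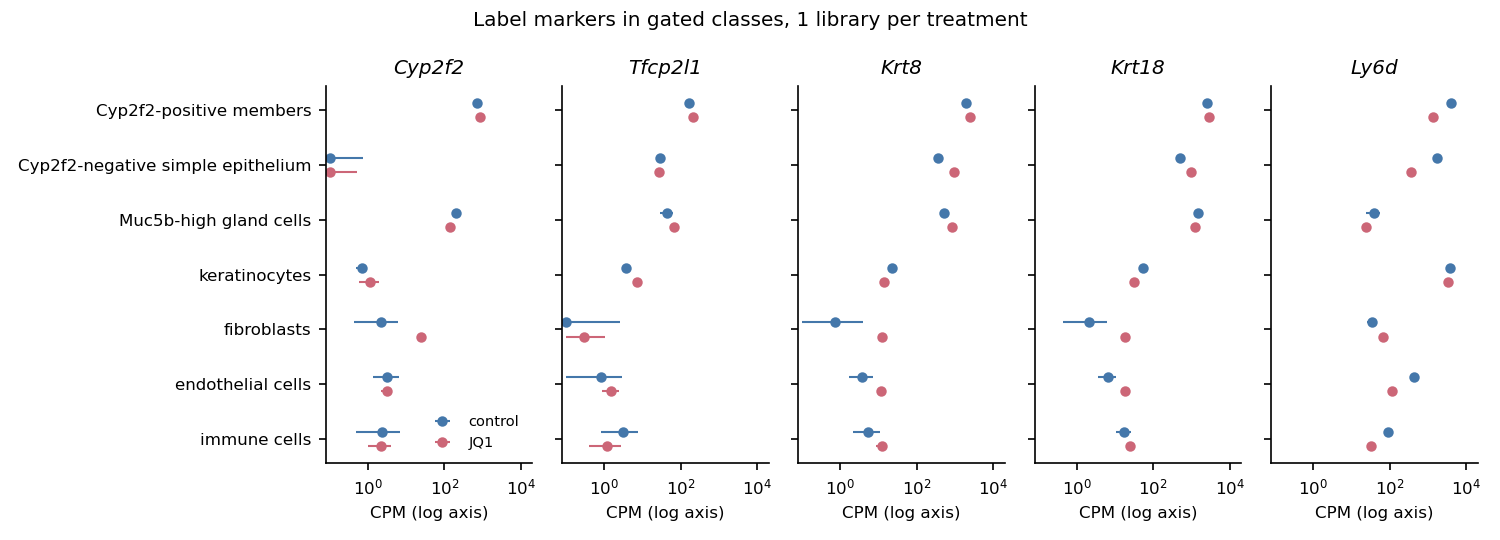
Level of the 5 proposed markers, in CPM on a log axis, in 7 classes of cells of each library, with values of 0 drawn at 0.1. Cyp2f2, Tfcp2l1, Krt8 and Krt18 were part of the rule for the members, and Ly6d was as high in keratinocytes as in the members of the control library.

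Other gland and airway identities were checked by their defining genes. Foxi1, the factor of ionocytes, and Trpm5, the cation channel of taste receptor cells, had 0 UMIs in members of either library. Scgb1a1, the secretoglobin of airway club cells, had 2 UMIs in control and 0 in JQ1 members, so the cells shared Cyp2f2 with club cells and not their main secreted protein. The whole airway secretory list summed to 8762 and 42267 CPM in members, and the secretory protein Bpifb1 was at 8505 and 41970 CPM. Of that list 3 of 4 measured genes were 2-fold or more above keratinocytes in both libraries and 0 below. Against Muc5b-high cells 1 of 6 was higher and 3 lower. Ascl3, a factor of salivary duct cells, had 0 and 3 UMIs. The fibroblast list summed to 44.3 CPM in control and 498 CPM in JQ1 members, against 26683 and 25863 CPM in fibroblasts, and the endothelial list to 4.39 and 45.1 CPM in members. Serous transcripts summed to 39987 and 148916 CPM, mucous transcripts to 1058 and 5205 CPM, and suprabasal keratinocyte transcripts to 23271 and 2594 CPM. Large amounts of transcripts that belong to other epithelia were thus present, which led to a look at the members cell by cell.

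Ward clustering of the 327 members on their variable genes was cut at 8 sets, each called here by a leading gene. The genes that lead a set were used to form it, so the levels below describe the sets and are not tests. The sets were led by Wfdc18 (36 control and 47 JQ1 cells), by Wfdc18 together with Sbpl, a salivary protein (23 control and 43 JQ1 cells), by Krt13, the keratin of the suprabasal tongue lining (41 control and 10 JQ1 cells), by Krt14 and the taurine transporter Slc6a6 (8 control and 35 JQ1 cells), by catalase, Cat (7 control and 24 JQ1 cells), by Lipf, a gastric and lingual lipase (1 control and 28 JQ1 cells), by Krt17 (10 control and 4 JQ1 cells) and by the trefoil peptide Tff2 (1 control and 9 JQ1 cells). Numbers of cells in a set are a description and are not read as a difference between libraries, since the genes that form the sets differ between them.

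**Figure D2:**
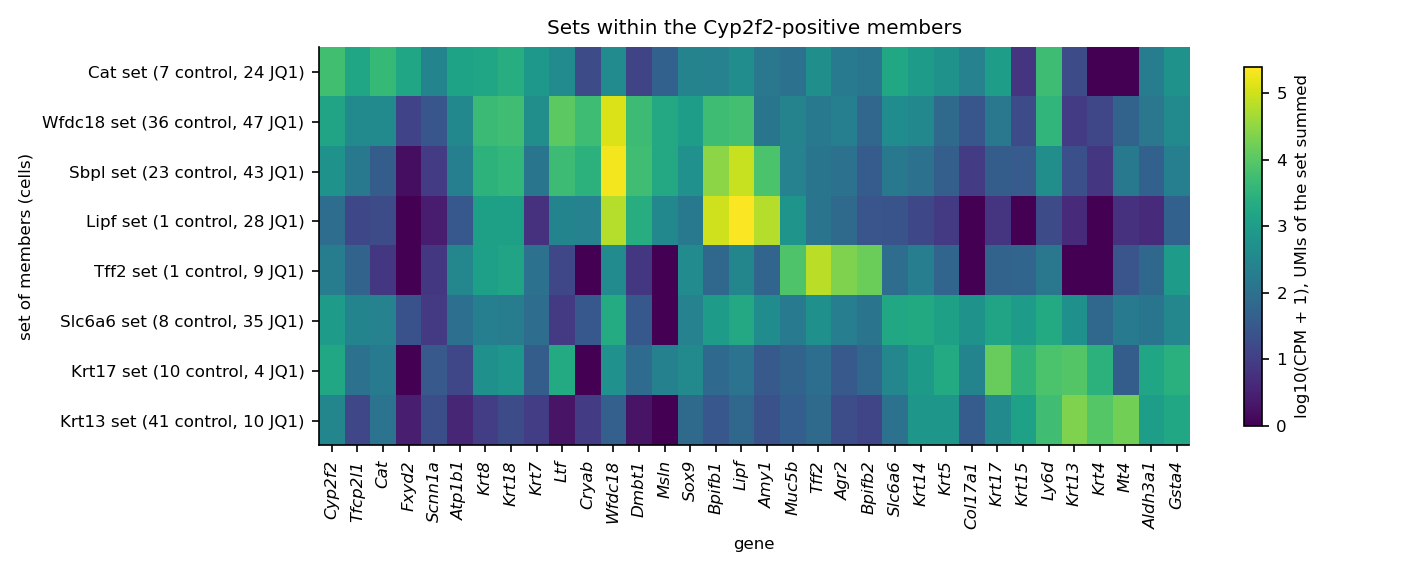
Level of marker genes in the 8 sets of members, both libraries summed, as the logarithm of CPM. Cyp2f2 and Tfcp2l1 peak in the set led by Cat, Krt13 and Krt4 in the set led by Krt13, and Lipf and Amy1 in the set led by Lipf.

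The catalase set held the most Cyp2f2 and Tfcp2l1 per UMI of the 8 sets. Cyp2f2 was at 5388 CPM (4765 to 6071) in its 7 control cells and at 6005 CPM (5579 to 6454) in its 24 JQ1 cells, and Tfcp2l1 at 1038 and 1768 CPM. Ly6d was at 4510.2 and 5434 CPM and Krt8 at 2814 and 1108 CPM, so all 5 proposed markers were present together. Of the 5, 4 were used in the rule and Ly6d was among the genes leading the set, so this describes the choice. The JQ1 cells of the set also had the basal keratins Krt14 at 1092 CPM and Krt5 at 619 CPM. Single cells of the set ran in Cyp2f2 from 1369 through a median of 3929.8 to 13708 CPM in the control library and from 1495 through 3692 to 21390.4 CPM in the JQ1 library, so the highest single value of each library was in this set. These were also cells of low depth, with medians of 7222 and 4111 UMIs, and of high mitochondrial share, with medians of 9.47% and 5.21%. Cat, the enzyme that breaks down hydrogen peroxide, was at 4171 and 4041 CPM in the catalase set against 144 and 137 CPM in the other members. Fxyd2, the gamma subunit of the sodium-potassium pump, was at 2854 and 1002 CPM in the catalase set against 4.94 and 3.61 CPM in the other members.

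Atp1b1, the beta subunit of the same pump, had the same order, at 1996 and 1092 CPM in the catalase set against 153 and 155 CPM in the other members. Scnn1a, the alpha subunit of the epithelial sodium channel, was at 279 and 277 CPM in the catalase set against 22.9 and 7.77 CPM in the other members. Sodium uptake at the lumen and its pumping out of the cell were therefore both represented by higher levels in the catalase set in both libraries. Kcnj15, an inwardly rectifying potassium channel, was at 239 and 122 CPM in the catalase set against 5.38 and 5.27 CPM in the other members. Fmo2, a flavin monooxygenase, was at 399 and 350.3 CPM in the catalase set against 36.8 and 38.8 CPM in the other members, and Cdo1, cysteine dioxygenase, at 279 and 228 CPM in the catalase set against 7.63 and 5.27 CPM in the other members. Hbegf, a ligand of the epidermal growth factor receptor, was at 1636 and 1092 CPM in the catalase set against 219.9 and 172 CPM in the other members. Orm1, an acute-phase plasma protein, was at 119.7 and 196 CPM in the catalase set against 1.35 and 1.66 CPM in the other members, next after Fxyd2 by the smaller of the folds of both libraries. These genes were picked after their values were seen, for their known roles, from the 30 highest by that smaller fold, and others such as Tspan8, Srd5a1 and Il33 ranked above some of them. The set rests on 31 cells, of which 7 were control cells. Some of its levels rest on few UMIs. Orm1 had 6 in control and 24 in JQ1 cells of the set, Kcnj15 12 and 15, Cdo1 14 and 28, and Scnn1a 14 and 34.

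The pair of sets led by Wfdc18 made up 59 control and 90 JQ1 members. The Wfdc18 set had Cyp2f2 at 1095 and 1681 CPM, Tfcp2l1 at 353 and 392 CPM, and Ltf, the iron-binding protein lactoferrin, at 9089 and 12369 CPM. The Sbpl set had Cyp2f2 at 559 and 553 CPM and Tfcp2l1 at 186 and 132 CPM, with Lipf at 48698 and 106517 CPM and Bpifb1, a lipid-binding secretory protein of mucosae, at 17949.6 and 34312 CPM. Both had the simple keratins, with Krt8 over both libraries at 4769.8 CPM in the Wfdc18 set and 3119.9 CPM in the Sbpl set. Wfdc18 itself was at 129389 and 205262 CPM, which places it among the most abundant transcripts of these cells.

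The Krt13 set did not carry the simple keratins. Over both libraries its 51 cells had Krt8 at 8.51 CPM (3.89 to 16.1) and Krt18 at 16.1 CPM (9.36 to 25.7), near the levels of keratinocytes, and Tfcp2l1 at 13.2 CPM (7.23 to 22.2). Krt13 was at 22417 CPM, its partner Krt4 at 9695 CPM, the metallothionein Mt4 at 17468 CPM and Ly6d at 5682 CPM. Cyp2f2 was at 305 CPM (273 to 340.4), and 7.32% of the control and 30% of the JQ1 cells of the set had a Krt8 UMI, against all cells of the pair of Wfdc18-led sets. These cells passed the rule mainly through Epcam, at 141 CPM, and had 2 detoxifying enzymes at high level, the glutathione transferase Gsta4 at 1753 CPM and the aldehyde dehydrogenase Aldh3a1 at 1058 CPM. The epithelial sum of the rule cut through such cells: the 18 control members at exactly 2 epithelial UMIs had Krt13 at 24374 CPM, and the 32 Cyp2f2-positive barcodes just outside, at 1, had 31227 CPM. The proposed name of duct epithelium is not borne out in them by Krt8, Krt18 or Tfcp2l1.

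The Slc6a6 set had Krt14 at 1883 CPM, Krt5 at 1148 CPM and Col17a1, a hemidesmosome collagen, at 574 CPM, with Cyp2f2 at 899.6 and Tfcp2l1 at 271 CPM. Basal keratins and Tfcp2l1 thus occurred together in it, as they did in JQ1 cells of the catalase and Krt17 sets. The Slc6a6 set also had the highest sums of fibroblast genes (2779 CPM) and of erythroid genes (12276 CPM) of the 8 sets, a low median depth in both libraries (5638 and 5015 UMIs) and both doublet calls, and their part in its profile was not tested. The Krt17 set had Cyp2f2 at 1733 CPM (1533 to 1952) beside Krt17 at 13711 and Krt15 at 3249 CPM, keratins of basal and appendage epithelium. That Cyp2f2 level leaned on few cells. Single JQ1 cells of the Krt17 set ran in Cyp2f2 from 880 through a median of 1099 to 11811 CPM, and its control cells from 109 to 2679 CPM. The Lipf set had Lipf at 232395 CPM, Bpifb1 at 100484 CPM and Amy1, salivary amylase, at 63094 CPM, with Cyp2f2 at 83.8 CPM (68.2 to 102), the lowest of the 8 sets. Its JQ1 cells, at a median of 36907 UMIs, ran in Cyp2f2 from 26.1 through a median of 82.5 to 683 CPM. The lowest were thus near the 24.3 CPM of JQ1 fibroblasts, and the part of free RNA in them was not tested. The Tff2 set had Tff2 at 68757 CPM, the mucin-folding protein Agr2 at 22476 CPM and Muc5b at 8334 CPM, with Cyp2f2 at 186 CPM (125 to 268). The Lipf and Tff2 sets thus held less Cyp2f2 per UMI than the other 6, and each held 1 control cell.

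**Figure D3:**
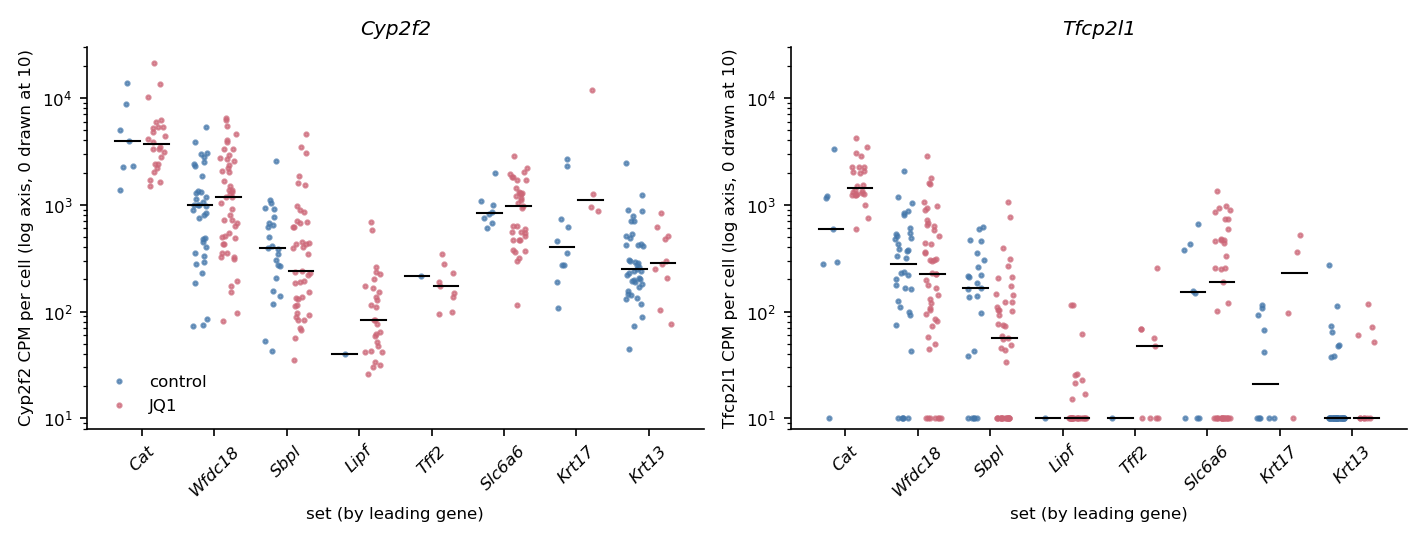
Level of Cyp2f2 and Tfcp2l1 in each member, in CPM on a log axis, by set and library, with 0 drawn at 10 and bars at the median. Cells of the Cat set lie at the top for Cyp2f2 and Tfcp2l1, and cells of the Krt13 set lie mostly at 0 for Tfcp2l1.

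Each member was also set against the summed profiles of keratinocytes, Muc5b-high cells, fibroblasts, endothelial cells, immune cells and the members of the other library. The genes of the rule were left out. Cells that met the rule's other limits but had no Cyp2f2 UMI were not among these profiles. Nearness to the members therefore does not set a cell apart from them. Of the 127 control members, 79 correlated best with the JQ1 members, 47 with keratinocytes and 1 with Muc5b-high cells. Of the 200 JQ1 members, 113 correlated best with the control members, 50 with Muc5b-high cells, 23 with keratinocytes, 12 with fibroblasts and 2 with endothelial cells. All 31 cells of the catalase set and all 36 control cells of the Wfdc18 set were nearest to the members, as were 41 of 47 JQ1 cells of the Wfdc18 set. Of the JQ1 cells of the Sbpl set 31 of 43 were nearest to the members and 12 to Muc5b-high cells, and of those of the Slc6a6 set 15 of 35 were nearest to the members, 11 to keratinocytes and 9 to fibroblasts. All 51 cells of the Krt13 set were nearest to keratinocytes, and all 28 JQ1 cells of the Lipf set to Muc5b-high cells. The classes compared share libraries and free RNA, and these nearest classes are a description.

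Cyp2f2 was then counted in the stratified lining without the limits on Krt5, Krt14 and simple keratins. Among control barcodes with 0.2% or more Krt13 plus Krt4 and no Ptprc UMI, 143 of 805 barcodes (17.8%, 15.2 to 20.6%) had 2 or more Cyp2f2 UMIs. The share was 111 of 342 barcodes (32.5%, 27.5 to 37.7%) where Krt5 plus Krt14 was under 0.5%, and 32 of 463 barcodes (6.91%, 4.78 to 9.62%) where it was 0.5% or more. Both had similar median depths of 18339 and 18848 UMIs. In the JQ1 library the shares were 15 of 113 barcodes (13.3%, 7.62 to 20.9%) and 19 of 229 barcodes (8.3%, 5.07 to 12.7%), at median depths of 7442 and 12230 UMIs. In the control library Cyp2f2 was thus found more often in Krt13 cells that were low in basal keratins, and in the JQ1 library the intervals overlapped. Fibroblasts had 17 of 1074 barcodes (1.58%, 0.925 to 2.52%) in the JQ1 library, at a median of 4876 UMIs, and 0 of 212 in the control library, at a median of 4925.5 UMIs, which allows a share of cells with 2 UMIs of up to 1.42% by the limit of 3 counts. Endothelial cells had 1 of 484 barcodes (0.207%, 0.00523 to 1.15%) and 3 of 2073 barcodes (0.145%, 0.0299 to 0.422%). Only 43 of the 143 control and 12 of the 34 JQ1 Krt13 barcodes with Cyp2f2 were members, since the rest had too few simple-epithelium UMIs or too much Krt5, Krt14 or Muc5b.

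Cells that met every other limit of the rule but had no Cyp2f2 UMI numbered 305 in the control and 564 in the JQ1 library. Tfcp2l1 was at 29.5 and 27.9 CPM in them, against 164 and 208 CPM in the members. Ltf was at 234 and 203 CPM against 3954 and 3933 CPM, Cftr at 0.807 and 0.688 CPM against 17.6 and 12.9 CPM, and Wfdc18 at 13354 and 23589 CPM against 93745 and 99859.9 CPM. Lipf, at 32259 and 124675 CPM against 20655 and 103409 CPM, was not lower in them. The Cyp2f2 threshold thus separated out cells rich in Tfcp2l1, lactoferrin and Wfdc18, and the lingual lipase was shared. Their median depths were 13645 and 6345 UMIs, and shallower cells meet a threshold of 2 UMIs less often.

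Genes outside the rule were compared between the members and each comparison class within each library, and a gene counted as higher or lower only where it differed by 2-fold or more in both libraries. A gene was measured where it had 20 or more UMIs over both classes and 10 CPM or more in the higher. Of 7873 genes measured against keratinocytes, 502 (6.38%) were higher in the members and 757 (9.62%) lower. Of 7347 measured against Muc5b-high cells, 426 (5.8%) were higher and 1050 (14.3%) lower. The median log2 ratio over all measured genes was -0.29 in the control and -0.79 in the JQ1 library against keratinocytes, and -0.08 and -0.55 against Muc5b-high cells. A few very abundant secretory transcripts take a large part of the members' UMIs, so every list median below is to be read beside these values.

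The 20 genes farthest above both comparison classes in both libraries were mostly secreted and surface proteins. Wfdc18 was at 93745 and 99859.9 CPM in members, 156 and 103 CPM in keratinocytes and 1530.4 and 1678 CPM in Muc5b-high cells. Ltf was at 3954 and 3933 CPM in members, 11.6 and 2.35 CPM in keratinocytes and 11.1 and 274 CPM in Muc5b-high cells, and Dmbt1, a scavenger receptor protein of saliva that binds bacteria, at 3218 and 2986 CPM in members, 2.04 and 2.16 CPM in keratinocytes and 207 and 93.2 CPM in Muc5b-high cells. Ccl6, a chemokine, was at 796 and 395 CPM in members, 0.153 and 0.282 CPM in keratinocytes and 0 and 1.08 CPM in Muc5b-high cells. Iron capture, bacterial binding and chemoattraction were thus represented by single genes that were far lower in both comparison classes. Msln, the membrane-anchored glycoprotein mesothelin, was at 1064 and 907 CPM in members, 3.87 and 0.282 CPM in keratinocytes and 0 and 12.2 CPM in Muc5b-high cells. Cryab, a small heat shock protein, was at 2095 and 1973 CPM in members, 23.9 and 11.7 CPM in keratinocytes and 12.7 and 30.4 CPM in Muc5b-high cells, and Clu, the secreted chaperone clusterin, at 771 and 1618 CPM in members, 16.3 and 30.5 CPM in keratinocytes and 86 and 123 CPM in Muc5b-high cells.

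Lyz2, a lysozyme usually read as a myeloid marker, was at 1623 and 496 CPM in members, 1.77 and 3.85 CPM in keratinocytes and 0 and 11.6 CPM in Muc5b-high cells, and immune cells had 784 and 3248 CPM. The myeloid adaptor Tyrobp was at 2.63 and 1.34 CPM in members and 1056 and 1022 CPM in immune cells, and the complement gene C1qa at 0 and 0.805 CPM in members. Lyz2 in the members therefore stood without Tyrobp or C1qa. The calprotectin gene S100a8, which keratinocytes also express, was at 335 and 14.5 CPM in members and 2606 and 1670.4 CPM in keratinocytes, and the 11 genes of the immune list outside the rule summed to 2208 and 542 CPM in members. Foxc1, a forkhead transcription factor, was at 106 and 80.2 CPM in members, 17.3 and 14.1 CPM in keratinocytes and 3.19 and 4.79 CPM in Muc5b-high cells. Ces1d, a carboxylesterase, was at 166 and 129 CPM in members, 2.62 and 1.88 CPM in keratinocytes and 1.59 and 4.22 CPM in Muc5b-high cells. Enpep, an aminopeptidase, and Krt23, a small keratin, were at 76.4 and 55.8 CPM and at 273 and 194 CPM in members. The remaining genes were Wfdc15b, Serpinb6b, Socs2, Tm4sf1 and 4 serous products, Lipf, Amy1, Bpifb1 and Dcpp3. The serous products rested on few cells in the control library, where 1 cell held 85.6% of the members' Amy1 UMIs, 43.6% of their Lipf UMIs and 40.5% of their Bpifb1 UMIs. For Dcpp3 1 cell held 29.5% of the control and 47.5% of the JQ1 UMIs.

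**Figure D4:**
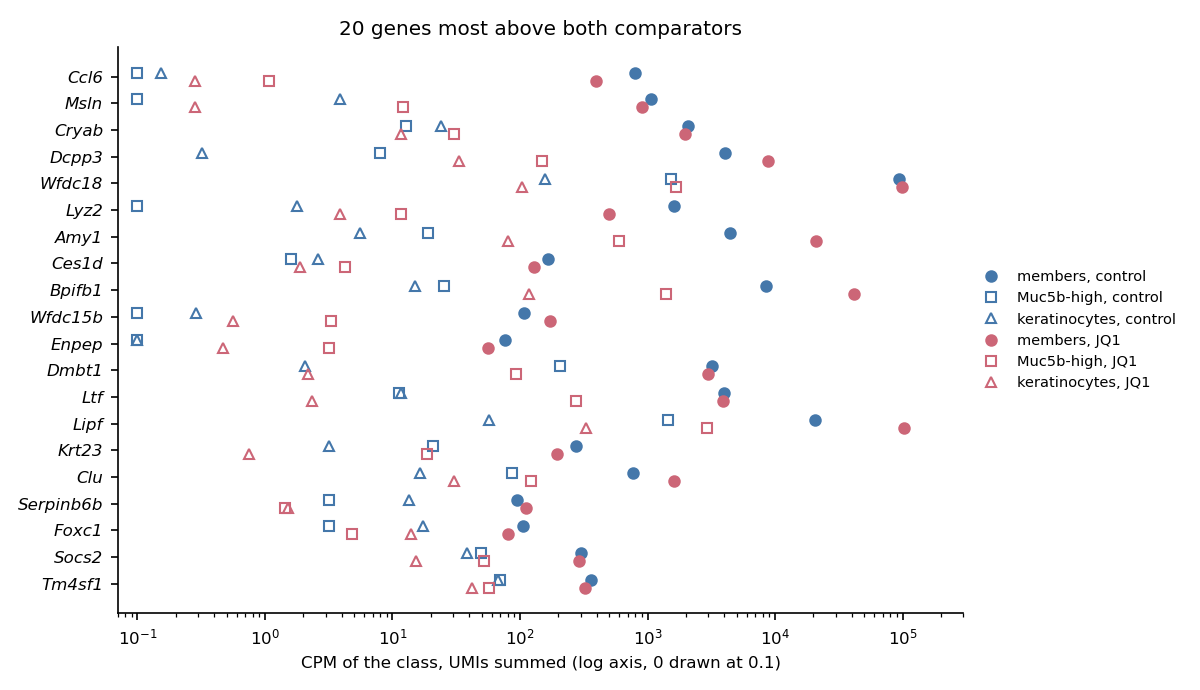
Level of the 20 genes farthest above both comparison classes, in CPM on a log axis, in members, keratinocytes and Muc5b-high cells of each library, with 0 drawn at 0.1. Members of both libraries lie to the right of both comparison classes for each gene, which is how the genes were picked.

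Against keratinocytes, the members had the junction and membrane genes of simple epithelium. In that list 8 of 15 measured genes were higher and 0 lower, with median log2 ratios of 1.73 and 1.76. Prom1, the apical membrane protein prominin, had log2 ratios of 5.61 (5.23 to 6.00) in the control and 6.13 (5.26 to 7.15) in the JQ1 library. The claudins Cldn3 and Cldn7, which seal tight junctions, had 4.04 and 6.15 and 4.08 and 5.94, and Krt7, another simple keratin, had 3.65 and 4.91. Among gland and duct transcription factors 8 of 18 measured genes were higher and 0 lower, with median log2 ratios of 0.87 and 0.74, and Sox10, a factor of salivary progenitors, acini and intercalated ducts, had log2 ratios of 8.06 (6.58 to 10.01) and 5.37 (3.94 to 7.30), at 16.2 and 15.6 CPM in members against 0.061 and 0.376 CPM in keratinocytes. In these lists no measured gene was lower in both libraries.

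Ion transport and defence genes were also higher against keratinocytes. Of the duct ion and water transport list, 11 of 21 measured genes were higher and 1 lower, with median log2 ratios of 1.38 and 1.61. Cftr, the chloride channel, had log2 ratios of 9.17 (7.22 to 12.26) and 7.10 (4.55 to 12.43), at 17.6 and 12.9 CPM in members against 0.0305 and 0.0939 CPM in keratinocytes. Slc5a8, a sodium-coupled transporter of lactate and short-chain fatty acids, had 5.14 and 3.57, and Atp1b1 5.39 and 4.80. Of the mucosal defence list 9 of 13 measured genes were higher and 2 lower, with median log2 ratios of 3.73 and 3.62. Cxcl17, a chemokine of mucosal epithelia, was at 130.3 and 71.4 CPM in members against 0.061 and 0.188 CPM in keratinocytes. Of the immediate early genes, which are also raised by tissue dissociation, 12 of 18 measured genes were higher and 0 lower, with median log2 ratios of 1.71 and 1.21.

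Some enzymes of xenobiotic metabolism stood far above keratinocytes and most did not pass 2-fold. In that list, Cyp2f2 left out, 9 of 40 measured genes were higher and 4 lower, with median log2 ratios of 0.29 and -0.44. Both medians lay above those of all genes, and the share of higher genes was above the 6.38% of all genes. Cyp2a5, a P450 that like Cyp2f2 acts on small aromatic molecules, was at 28.5 and 31.9 CPM in members against 0.0305 and 0 CPM in keratinocytes. Its log2 ratio was 9.87 (7.96 to 12.94) in the control library and at least 6.82 in the JQ1 library, where keratinocytes had no UMI and were set to 3. Few JQ1 members carried Cyp2a5, with 39 UMIs in 1 cell of the Krt17 set and 39 in 3 cells of the catalase set. Gstt1, a glutathione transferase, had 6.55 and 3.62, the retinaldehyde dehydrogenase Aldh1a1 5.71 and 3.31, Fmo2 4.96 and 2.80, and Cbr2, a carbonyl reductase of airway epithelium, 2.08 and 2.94. The list's median in the JQ1 library turned positive when keratinocytes were taken at 3% rather than 1% Krt5 plus Krt14, at 0.24, so its sign there depends on which keratinocytes are used.

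Proliferation, glycolysis and basal genes were lower in the members. Of the S phase list 0 of 17 measured genes were higher and 16 lower, with median log2 ratios of -1.80 and -2.90, and of the G2 and M phase list 0 of 18 measured genes were higher and 13 lower, with median log2 ratios of -1.18 and -2.95. Of the hypoxia and glycolysis list 0 of 18 measured genes were higher and 13 lower, with median log2 ratios of -1.53 and -1.78, and of the basal keratinocyte list 0 of 9 measured genes were higher and 8 lower, with median log2 ratios of -2.77 and -2.39. The limits on Krt5 and Krt14 in both rules chose against basal cells among the members, so the basal difference carries part of the choice. The genes farthest below keratinocytes were led by Ppbp, a platelet-type chemokine, at 0.878 and 1.88 CPM in members against 674 and 207 CPM in keratinocytes. Igfbp3, a binding protein of insulin-like growth factors, was at 23.3 and 15.8 CPM in members against 661 and 436 CPM in keratinocytes, and the Wnt ligand Wnt10a at 2.19 and 5.1 CPM in members against 99 and 105 CPM in keratinocytes. Col17a1 was at 35.5 and 66.8 CPM in members against 631 and 777 CPM in keratinocytes. Tgfbi, Nrg1, Fscn1, Lmo1, Tnfrsf23 and AA467197 completed the 10.

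Against Muc5b-high cells, the members were low in the mucous programme and in its folding machinery. Of the mucous acinar list 0 of 9 measured genes were higher and 8 lower, with median log2 ratios of -4.71 and -3.81, and of the endoplasmic reticulum and secretory load list 0 of 20 measured genes were higher and 10 lower, with median log2 ratios of -0.97 and -1.38. Olfm4, a secreted glycoprotein, was at 0.878 and 2.15 CPM in members against 704 and 137 CPM in Muc5b-high cells. The membrane mucin Muc16 was at 3.95 and 3.22 CPM in members against 218 and 145 CPM in Muc5b-high cells, and Chst4, a sulphotransferase that modifies mucins, at 2.63 and 14.5 CPM in members against 502 and 427 CPM in Muc5b-high cells. Bpifb2, a lipid-binding secretory protein, was at 68 and 676 CPM in members against 22115 and 18357 CPM in Muc5b-high cells. The limit on Muc5b in the rule chose against mucous cells, so these differences carry part of the choice.

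Lining, serous and defence genes were higher in the summed members. Of the suprabasal keratinocyte list 11 of 12 measured genes were higher and 0 lower, with median log2 ratios of 4.73 and 2.66. These genes were carried mainly by 2 sets, with sums of 53019 CPM in the Krt13 set and 27640.1 CPM in the Krt17 set, against 784 CPM in the Wfdc18 set, 204 CPM in the Sbpl set and 45.6 CPM in the Lipf set. Of the serous list 7 of 8 measured genes were higher and 1 lower, with median log2 ratios of 5.86 and 5.28, and of the mucosal defence list 7 of 11 measured genes were higher and 2 lower, with median log2 ratios of 2.21 and 2.23. Cldn4, a claudin of duct and other tight epithelia, was at 443 and 265 CPM in members against 0 and 1.77 CPM in Muc5b-high cells. Among ion and water transport genes 4 of 20 measured genes were higher and 5 lower, with median log2 ratios of -0.33 and -0.27, and among xenobiotic genes 10 of 40 measured genes were higher and 4 lower, with median log2 ratios of 0.63 and -0.39. Ion transport therefore set the members apart from keratinocytes and not, as a list, from Muc5b-high gland cells.

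The comparison of JQ1 with control asked which transcripts of these cells differ between the tumours. Of 7674 genes measured in members, 302 (3.94%) were 2-fold or more higher in the JQ1 library and 991 (12.9%) 2-fold or more lower. The median log2 ratio over all of them was -0.35, and with ratios centred on that median 551 genes were higher and 447 lower. The mix of sets moved with the library, and its part in the result was not tested in all members: of the control members 32.3% and of the JQ1 members 5% fell in the Krt13 set, and 0.787% and 14% in the Lipf set. The comparison was therefore repeated within the pair of sets led by Wfdc18, an alternative added after seeing the data. The pair is not 1 branch of the clustering. Cut at 4 sets, the Sbpl set joined the Lipf set and the Wfdc18 set joined the Tff2 set. Its mix also differed, with 23 of 59 control and 43 of 90 JQ1 cells from the Sbpl set. The part of that mix in values within the pair was not tested. Within the pair 311 of 7409 genes (4.2%) were higher and 407 (5.49%) lower, with a median of -0.18. In keratinocytes 248 of 8095 (3.06%) were higher and 199 (2.46%) lower, with a median of 0.13.

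The genes named as most raised in the JQ1 members were products of serous and mucous acini and of stroma. Chia1, an acidic chitinase, was at 1.32 CPM in control and 719.6 CPM in JQ1 members, and Prb1, a proline-rich salivary protein, at 39.1 CPM in control and 1057 CPM in JQ1 members, a ratio of 27.1 (21.9 to 33.8). Agr2 was at 107 CPM in control and 1049.6 CPM in JQ1 members, and Bpifb2 at 68 CPM in control and 676 CPM in JQ1 members. Both are mucous products, at 16057 and 18357 CPM in JQ1 Muc5b-high cells, and within the pair of Wfdc18-led sets Agr2 had a log2 ratio of -0.09 (-0.36 to 0.20) and Bpifb2 of 1.20 (0.59 to 1.85). Dcn, decorin of the connective tissue matrix, was at 22.8 CPM in control and 257 CPM in JQ1 members and at 6299.5 CPM in JQ1 fibroblasts. Vim, the filament protein of mesenchyme, was at 13.6 CPM in control and 142 CPM in JQ1 members and at 2424 CPM in JQ1 fibroblasts. Aqp1, Serping1, Igfbp7, Igfbp4 and Col1a2, all higher in JQ1 fibroblasts than in JQ1 members, and the serous gene Prpmp5 completed the 12. With every gene left out whose level in fibroblasts was at or above that in members, 107 genes remained higher. The part of free stromal RNA in the others was not tested.

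The genes named as most lowered belonged to the stratified lining. Krt13 was at 9558 CPM in control and 945 CPM in JQ1 members, a ratio of 0.0989 (0.0954 to 0.102). Fabp5, the epidermal fatty acid binding protein, was at 10827 CPM in control and 969 CPM in JQ1 members, and Krtdap, a secreted protein of differentiating keratinocytes, at 2308 CPM in control and 226 CPM in JQ1 members. Tgm3, a transglutaminase of the cornified envelope, was at 309.8 CPM in control and 16.9 CPM in JQ1 members, and Serpinb3a, a protease inhibitor of squamous epithelium, at 132 CPM in control and 1.34 CPM in JQ1 members. The other 7 were Krt32, Chit1, Csta1, Calm4, Pinlyp, Them5 and Aqp3. In the suprabasal keratinocyte list 0 of 17 measured genes were higher and 16 lower, with a median log2 ratio of -3.06. Within the pair of Wfdc18-led sets, where Krt13-set cells are absent, the same list had 0 of 11 higher, 9 lower and a median of -1.64, and in keratinocytes 3 of 17 higher, 2 lower and a median of 0.24. The lining transcripts were thus lower also in JQ1 cells of the pair of sets, with a median nearer to 0. How much of this is free RNA of the lining, which was at 29.3 CPM of Krt13 in control and 22.6 CPM in JQ1 fibroblasts, was not tested.

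Class I antigen presentation genes had a median below that of all genes in JQ1 members and above it in JQ1 keratinocytes. In members 0 of 17 measured genes were higher and 5 lower, with a median log2 ratio of -0.66, beside -0.35 over all genes. The list had 1 of 20 higher, 5 lower and a median of -0.57 within the pair of Wfdc18-led sets, and 8 of 18 higher, 0 lower and a median of 0.89 in keratinocytes. In Muc5b-high cells 1 of 18 was higher and 0 lower, with a median of -0.16, beside 0.14 over all genes there. A median below that of all genes was thus shared by the members and the Muc5b-high cells. H2-K1, a class I heavy chain, was at 1203 CPM in control and 904 CPM in JQ1 members, a log2 ratio of -0.41 (-0.48 to -0.34), and at 649 and 1788 CPM in keratinocytes. B2m, the light chain shared by all class I molecules, was at 326 CPM in control and 211 CPM in JQ1 members, a log2 ratio of -0.63 (-0.78 to -0.48), and at 404 and 910 CPM in keratinocytes. H2-D1, the other classical heavy chain of this strain, was at 743 CPM in control and 553 CPM in JQ1 members and at 509.8 and 1076 CPM in keratinocytes. In members the ratios of both heavy chains lay near the median of all genes, at -0.35, and that of B2m below it, whereas all 3 were 2-fold or more higher in JQ1 keratinocytes. Psmb8, a subunit of the immunoproteasome, was at 54.9 CPM in control and 25 CPM in JQ1 members, a log2 ratio of -1.14 (-1.54 to -0.74), and Tap1, which carries peptides to class I molecules, at 36.4 CPM in control and 17.4 CPM in JQ1 members. The non-classical chain H2-Q7 was at 59.7 CPM in control and 18.5 CPM in JQ1 members, a log2 ratio of -1.69 (-2.13 to -1.26), and at 88.8 and 21.1 CPM within the pair of sets. Class I chains are near-identical copies, and how the counting assigned reads between them is not known here.

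**Figure D5:**
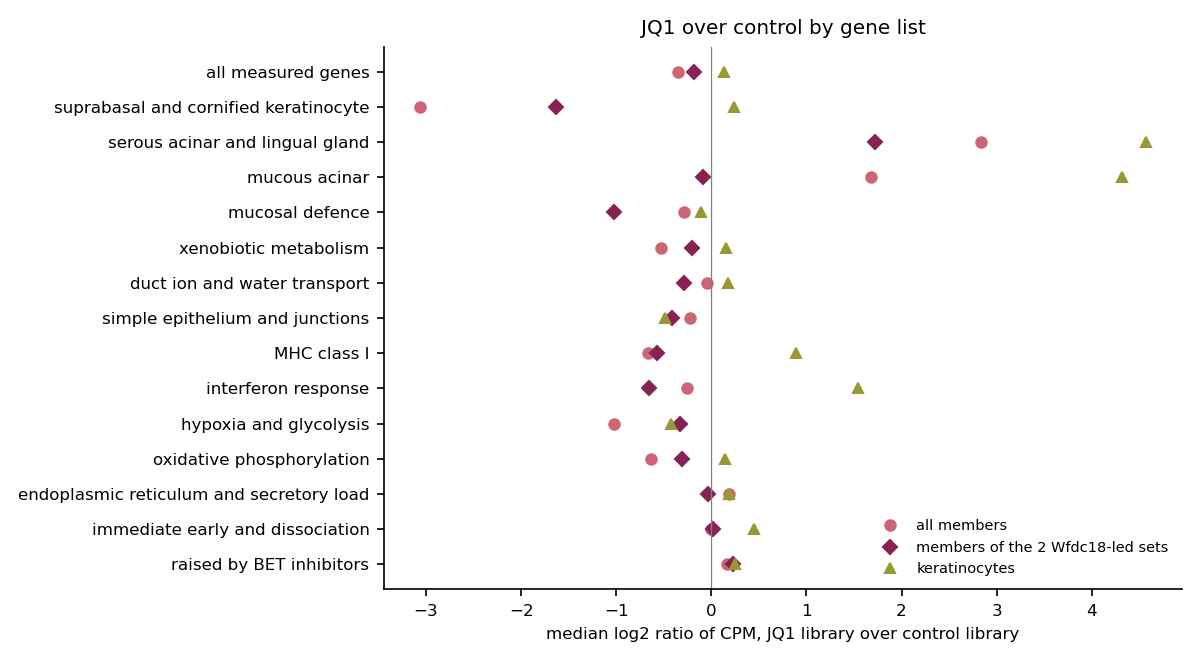
Median log2 ratio of JQ1 over control for the gene lists drawn and for all measured genes, in all members, in the pair of Wfdc18-led sets and in keratinocytes. Class I and interferon genes lie below 0 in the members and in the pair of sets and above 0 in keratinocytes, and suprabasal genes lie at -3.06 in the members.

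Interferon-response genes differed between libraries in keratinocytes and less in members. In members 0 of 16 measured genes were higher and 0 lower, with a median log2 ratio of -0.25, which is above that of all genes. Within the pair of sets the list had 1 of 18 higher, 6 lower and a median of -0.66, and in keratinocytes 9 of 15 higher, 0 lower and a median of 1.55. In Muc5b-high cells 0 of 12 were higher and 1 lower, with a median of 0.14, beside 0.14 over all genes there. Oasl2, an antiviral gene, was at 34.8 and 15.9 CPM within the pair of sets and at 3.26 and 13.4 CPM in keratinocytes. These are low levels, and the difference in direction between the classes was not tested.

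Defence proteins differed from each other in direction. In the mucosal defence list 2 of 13 measured genes were higher and 3 lower, with a median log2 ratio of -0.29, and within the pair of sets 1 of 13 higher, 7 lower and a median of -1.02. Lcn2, lipocalin 2, which binds bacterial siderophores, was at 369 CPM in control and 155 CPM in JQ1 members and at 729 and 220.5 CPM within the pair of sets, a log2 ratio there of -1.72 (-1.90 to -1.55). Lyz2 was at 3213 and 776 CPM within the pair of sets, a ratio of 0.242 (0.227 to 0.257), and Slpi, a protease inhibitor of mucosal fluids, at 1298 and 639 CPM. Ltf, at 8009.6 and 7510.4 CPM, and Clu, at 1593 and 3053 CPM, did not share that direction. Lipocalin 2 and lysozyme were thus lower in the JQ1 cells, and lactoferrin was lower in JQ1 cells of the Sbpl set, at 6855 and 4034 CPM, and higher in those of the Wfdc18 set, at 9089 and 12369 CPM. The acute-phase protein Saa3 was at 4.83 CPM in control and 399.8 CPM in JQ1 members, with 56% of the JQ1 UMIs in 1 cell, and at 5254 and 13294 CPM in fibroblasts.

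Cyp2f2 and Tfcp2l1 differed by less than 2-fold between libraries in the pair of sets. Within the pair of Wfdc18-led sets Cyp2f2 was at 836 CPM in control and 1024 CPM in JQ1 cells, and Tfcp2l1 at 272 and 240 CPM. Both genes were used to choose the cells. In the xenobiotic list 1 of 43 measured genes were higher and 15 lower, with a median log2 ratio of -0.53, and within the pair of sets 0 of 39 higher, 5 lower and a median of -0.21. Adh7, an alcohol dehydrogenase that also oxidises retinol, was at 598 CPM in control and 129 CPM in JQ1 members, a log2 ratio of -2.21 (-2.37 to -2.06), and at 68.7 and 12.2 CPM within the pair of sets, but at 312 and 592 CPM in keratinocytes. Aldh3a1 was at 519 CPM in control and 140.3 CPM in JQ1 members. Fewer enzymes were lower within the pair of sets, where the share of all genes that were lower also fell, from 12.9% to 5.49%. The pair leaves out the other 6 sets, and the part of any 1 set was not tested.

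Genes known to respond to BET inhibitors in other cells were checked as lists. Of the list raised by such drugs 0 of 6 measured genes were higher and 0 lower, with a median log2 ratio of 0.16, and Hexim1, an inhibitor of the elongation factor P-TEFb, was at 33.4 CPM in control and 51.2 CPM in JQ1 members, a log2 ratio of 0.62 (0.23 to 1.02). Of the list lowered by them 0 of 7 measured genes were higher and 3 lower, with a median log2 ratio of -0.74, where 12.9% of all genes were lower, and its median was 0.52 within the pair of sets. The 3 were Fosl1, an AP-1 subunit, at 58.8 CPM in control and 24.4 CPM in JQ1 members, the cell cycle kinase Cdk6, at 12.7 CPM in control and 5.63 CPM in JQ1 members, and Id1, an inhibitor of differentiation factors, at 251 CPM in control and 97.9 CPM in JQ1 members. Myc, the growth-promoting transcription factor, was at 100.5 CPM in control and 91.8 CPM in JQ1 members, a log2 ratio of -0.13 (-0.38 to 0.12). Immediate early genes had 18 measured members with none past 2-fold and a median of -0.0014, above the median of all genes.

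Secretory and growth lists differed between the libraries in all members. In the serous list 8 of 10 measured genes were higher and 0 lower, with a median log2 ratio of 2.83, and within the pair of sets the list had 4 of 6 higher, 0 lower and a median of 1.72. In the mucous list 6 of 9 measured genes were higher and 0 lower, with a median log2 ratio of 1.68, and within the pair of sets 3 of 9 higher, 1 lower and a median of -0.09. Within the pair the serous list was therefore higher in JQ1 cells, and the mucous list was mixed, with the Tff2 log2 ratio at 2.91 (2.37 to 3.51) and that of Agr2 at -0.09 (-0.36 to 0.20). In keratinocytes, which do not make them, the same lists had medians of 4.57 and 4.32, and the part of free gland RNA in the members' values was not tested. Of the G2 and M phase list 0 of 13 measured genes were higher and 10 lower, with a median log2 ratio of -1.91, a median that turned to 2.05 when cells were thinned before the rule and to 0.10 without the Krt13 and Lipf sets. Of the S phase list 0 of 5 measured genes were higher and 1 lower, with a median log2 ratio of -0.82. Only 1 and 3 genes of these lists were measured within the pair of sets. In the hypoxia and glycolysis list 0 of 16 measured genes were higher and 9 lower, with a median log2 ratio of -1.03, and within the pair of sets 0 of 16 higher, 1 lower and a median of -0.33. In the oxidative phosphorylation list 0 of 20 measured genes were higher and 0 lower, with a median log2 ratio of -0.64, beside -0.35 over all genes.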

How the data were processed

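The deposited files hold UMI counts per gene and barcode, from 10x 3' libraries of tongue tumours per the labels' protocols. Per the submitters' processing notes, Cell Ranger 3.1.0, Seurat 4.0.0 and the build mm10 were used, with the gene annotation not given in the sources used here. Each file lists 31053 genes. Barcodes with under 200 genes or 20% or more mitochondrial UMIs were left out, and doublets were called (Scrublet in scanpy 1.11.5) but kept, with their removal as an alternative. Members and gene lists were chosen with earlier results of these data known. Within a library, the UMIs of each class were added up and given as CPM with exact Poisson intervals, ratios got exact conditional intervals with a count of 0 set to 3, and shares got exact Clopper-Pearson intervals (scipy 1.17.1). Class genes were named by 50 CPM and 10% of members in both libraries and the smallest log2 ratio, and JQ1 genes by 50 CPM, 10% of cells, no cell over 20% of the UMIs, and the interval bound farthest from 1, with gate, mitochondrial, ribosomal, haemoglobin, sex-linked and predicted genes left out. Sets came from Ward clustering on 1000 variable genes and 15 principal components. The ratio code was tested on simulated data. Alternatives changed the Cyp2f2 threshold, thinning, comparison gates, cell limits, centring, filters and averaging. Sequences are RefSeq's, build GRCm38.p6. A test across samples could not be made with 1 library in each group. Some named genes are not reported here.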

Additional observations from a re-analysis of the deposited data

Results flagged for a closer look

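Lists with 5 or more measured genes whose median log2 ratio of JQ1 over control lay 0.5 or more below 0 in the members and 0.5 or more above 0 in keratinocytes were picked out, and 2 did. The class I antigen presentation list had a median of -0.66 in members and 0.89 in keratinocytes, with 5 of 17 genes lower in the first and 8 of 18 higher in the second. The S phase list had a median of -0.82 in members, from 5 measured genes at low level, and 1.04 in keratinocytes. Its median was 0.23 within the pair of Wfdc18-led sets, from 3 genes. In Muc5b-high cells the class I median was -0.16 and the S phase median 0.29, so neither list was picked out against them. The limits were counted from 0, whereas the median over all measured genes was -0.35 in members and 0.13 in keratinocytes. Both differences between members and keratinocytes rest on 1 library in each group and were not tested.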

How the results depend on the processing

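No paired analysis was possible because each group has 1 library. The share of members in the control library was 1.98% with 1 Cyp2f2 UMI as the threshold and 0.549% when every cell was thinned to 2000 UMIs before the rule was applied. In the JQ1 library it was 1.95% with 1 UMI, 1.12% with 3 and 0.734% after thinning, which leaves fewer UMIs to pass the rule. The count of genes higher in JQ1 members became 556 after thinning, 551 with ratios centred on their median, 1235 with no filter but 1 UMI, and 107 with fibroblast-level genes left out. The count of lower genes became 259, 447 and 3353 under the first 3 of these, 585 with the mean of per-cell CPM, 407 within the pair of Wfdc18-led sets and 288 without the Krt13 and Lipf sets, the last 2 chosen after seeing the data.

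Against keratinocytes at 3% Krt5 plus Krt14, the control medians were 0.87 for simple epithelium, 3.84 for mucosal defence and 0.67 for xenobiotic metabolism, whose JQ1 median turned from -0.44 to 0.24. With the mean of per-cell CPM, mucosal defence in the control library was 4.11 and xenobiotic metabolism in the JQ1 library -0.13. Over Muc5b-high cells in the JQ1 library, mucosal defence was 2.63 without doublet calls, 2.91 with the mean of per-cell CPM and 1.86 with 500 genes and 10% mitochondrial UMIs as limits, and simple epithelium was 0.26 with the mean of per-cell CPM.

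For lists, the spread ran from the median of the genes' lower interval bounds to the median of their upper bounds. It covers counting error and not variation between genes. A change of sign was counted for a list only where that spread excluded 0. JQ1 medians that changed sign after thinning were those of mucous genes (-0.0474), the Ly6 family (0.13), genes lowered by BET inhibitors (0.67) and G2 and M phase (2.05), with Agr2 at -0.0636. Within the pair of sets the sign changed for mucous genes (-0.0851), genes lowered by BET inhibitors (0.52), secretory load (-0.0319) and Agr2 (-0.0851). Without the Krt13 and Lipf sets it changed for genes lowered by BET inhibitors (0.73) and G2 and M phase (0.10). Simple epithelium changed sign with a threshold of 3 Cyp2f2 UMIs (0.0043) and with centred ratios (0.13). The cause of these changes was not tested. Of the other values under an alternative, 59 that answer a comparison and 409 of single lists or genes moved by less than the spread they were held against. Another 142 of single lists or genes moved by more. Among them was S phase within the pair of sets, whose median turned from -0.82 to 0.23 and whose main spread reached 0.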

Other observations

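Cyp2f2 was also found in barcodes that the rule left out for lack of simple-epithelium transcripts. In the control library 41 barcodes had 2 or more Cyp2f2 UMIs and none of Tfcp2l1, Epcam, Krt8 or Krt18, and held Krt13 at 34945 CPM and Ly6d at 4981 CPM. In the JQ1 library 64 such barcodes held Krt13 at 1396 CPM, Ly6d at 222 CPM and Muc5b at 200.2 CPM. The chemokine Ccl2, which draws monocytes, was at 189.6 CPM in control and 71.9 CPM in JQ1 members, whereas within the pair of Wfdc18-led sets it was at 11.9 and 51.3 CPM.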
